A study of Mus musculus with 8 samples.

Results

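In mouse B cells, 74 protein-coding genes had a mean level in CpG-cultured cells given LPS, PMA and ionomycin over the final 5 hours that was at least 3 times that of cells cultured with CpG alone for 3 days and that of naive cells, while those last means were near equal. They were chosen from the measured values. Counts were scaled to CPM (counts of a gene per 1000000 gene counts of its library) and averaged by group, and a protein-coding gene was kept if 4 conditions held. The mean with LPS, PMA and ionomycin was at least 5 CPM, the ratio of the CpG mean to the naive mean lay between 0.67 and 1.5, the first mean was at least 3 times both others, and both of its libraries lay above every other library. Immunoglobulin genes and 1 other gene were left out by name. Of 37583 gene identifiers, 20177 were protein-coding and open to the rule, 9274 of these reached 5 CPM, 6188 of those also had the near-equal ratio, and 74 met every condition (1.20%).

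RNA was sequenced from splenic B cells of C57BL/6 mice, strain B6 in the labels, in 8 libraries. The TLR group (labelled Bregs-TLR) had 2 libraries of cells cultured with the CpG oligonucleotide ODN1668, with LPS, PMA and ionomycin present during the last 5 hours. The CpG group (Bregs-CpG) had 3 libraries of cells stimulated with CpG ODN1668 for 3 days, and 3 libraries of naive B cells made up the naive group. No library of cells given LPS, PMA or ionomycin alone was analysed here, so their effects cannot be told apart. Whether replicates are separate animals or cultures is not in the labels, so p-values measure the spread among these libraries, which may be technical. Gene counts per library summed to 15804311 to 20069272, and 1 count was worth 0.0498 to 0.0633 CPM.

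CpG DNA is sensed by the endosomal receptor TLR9 and LPS by TLR4, and both receptors signal to NF-kB and MAP kinases. PMA activates protein kinase C directly, and ionomycin carries calcium into the cell, which activates the phosphatase calcineurin and through it NFAT, so the pair imitates much of the signal of an antigen receptor. Genes that answer such signals within minutes to hours without new protein synthesis are called immediate early genes, and many encode transcription factors or feedback inhibitors. Over the following hours, activated lymphocytes are known to enlarge, which requires ribosomal RNA made by RNA polymerase I in the nucleolus, assembly factors that build it into ribosomes, and nucleotides.

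Stretches before the start sites of some members that carry known DNA motifs are shown here, with the motif in capitals. The stretches are read 5′ to 3′ on the gene's strand from RefSeq (GRCm38.p6), and they were picked for carrying a motif. The first 4 each hold the cyclic AMP response element (CRE, TGACGTCA, a binding sequence of the CREB and ATF factors) among the 50 bases before the start, and they are shown because members with a CRE come from 3 different role groups described below. In Tnfrsf8, the capitals mark an AP-1 motif (TGANTCA, bound by Fos and Jun factors) and then an E-box (CACGTG, bound by Myc and related factors). In Fosl2 they mark an EGR motif (GCGNGGGCG). In Dusp5 they mark an NF-kB motif (here on the other strand) followed by a pair of adjacent CArG boxes, the sequence bound by serum response factor. The NF-kB motif and the first CArG box share bases. Over all members searched, AP-1 and NF-kB motifs were no more frequent than over all protein-coding genes. E-box, EGR, CRE and CArG motifs were more frequent, and all shares are given below. They were found in 8, 9, 4 and 2 of 62 members in that order. The set of all protein-coding genes was not limited to those expressed in these cells, as the members are. Whether a motif plays a part in the levels of these genes was not tested.
Maff, chr15:79347480-79347519, + strand: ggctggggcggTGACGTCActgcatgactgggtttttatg
Ppan, chr9:20888135-20888174, + strand: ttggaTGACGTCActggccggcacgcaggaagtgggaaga
Trmt61a, chr12:111678065-111678104, + strand: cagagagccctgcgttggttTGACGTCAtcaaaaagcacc
Ccdc86, chr19:10949267-10949306, - strand: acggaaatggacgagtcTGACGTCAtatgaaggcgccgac
Tnfrsf8, chr4:145315165-145315304, - strand: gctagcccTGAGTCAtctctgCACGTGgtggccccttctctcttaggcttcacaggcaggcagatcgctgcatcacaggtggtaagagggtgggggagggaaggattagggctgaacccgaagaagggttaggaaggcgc
Fosl2, chr5:32136382-32136471, + strand: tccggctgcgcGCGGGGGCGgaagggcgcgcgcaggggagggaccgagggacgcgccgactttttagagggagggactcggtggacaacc
Dusp5, chr19:53529045-53529144, + strand: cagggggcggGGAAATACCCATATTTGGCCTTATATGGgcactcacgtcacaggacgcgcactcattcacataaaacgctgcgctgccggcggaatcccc

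Across the 74 genes, the ratio of the TLR mean to the larger of the other means ran from 3.00 to 31.0 with a median of 3.61 (3 being the limit of the rule). It reached 4 in 27 genes, 5 in 15 and 10 in 9. In 71 genes the lower TLR library was at least 2 times the highest CpG or naive library. The CpG to naive ratio ran from 0.76 to 1.497 with a median of 1.13, and the CpG mean was above the naive mean in 52. Over the 9274 protein-coding genes that reached 5 CPM, inside the window of the rule or not, the median CpG to naive ratio was 1.035. The share of those genes with a higher CpG mean was not counted, so the 52 cannot be set against other genes. All values of the 74 were used to choose them, so they are given as a description and no test of a single member is reported.

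**Figure D1:**
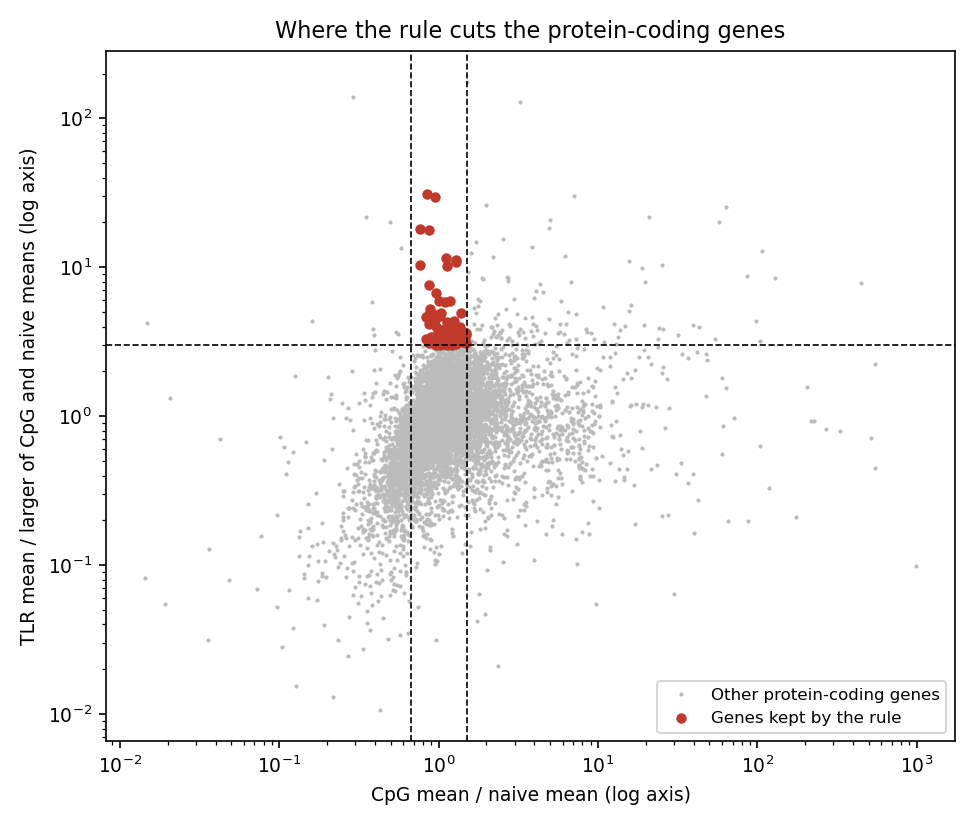
Each point is a protein-coding gene with a TLR mean of at least 5 CPM and both other means above 0, placed by its ratio of CpG mean to naive mean (x axis, log scale) and its ratio of TLR mean to the larger of the CpG and naive means (y axis, log scale). Dashed lines mark the limits of 0.67, 1.5 and 3, and the 74 genes kept (red) lie between the vertical lines and above the horizontal one, up to a ratio of 31.0.

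Both TLR libraries were compared within each gene. TLR replicate 2 was lower than replicate 1 in 43 of the 74 genes, the ratio of replicate 2 to replicate 1 ran from 0.456 (Hilpda) to 1.72 (Egr1) with a median of 0.968, and the libraries lay within 1.5 times of each other in 66. Among the 9274 protein-coding genes with a TLR mean of at least 5 CPM, the same ratio had a median of 0.985 and a range from 0.693 to 1.35 between the 5th and the 95th percentile. Replicate 2 was the lower one in 53.45% of those genes. The 8 members further apart were Hilpda, Gapdh (0.545), Gypc (0.582), Slc29a2 (0.593) and Comtd1 (0.619), which were lower in replicate 2, and Hspd1 (1.502), Sall2 (1.68) and Egr1, which were higher in it.

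The transcription factors and their partners numbered 10, with ratios from 3.14 to 11.5 and a median of 4.75. Fosl2 encodes Fra-2, a Fos family subunit of AP-1. It had 28.1 and 21.98 CPM in TLR cells, 1.83, 2.23 and 2.85 CPM in CpG cells and 2.498, 0.747 and 2.09 CPM in naive cells, so even the lower TLR library lay far above the highest of the 6 others, and the ratio was 10.9. Sall2, a zinc finger factor, had 9.97 and 16.7 CPM in the TLR libraries, 1.52, 1.696 and 1.37 CPM in the CpG libraries and 3.77, 0.947 and 0.574 CPM in the naive libraries. Naive replicate 1 stood above the other naive libraries here, and the TLR libraries differed by 1.68 times.

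Egr1 and Egr2 encode zinc finger factors that are switched on within minutes by MAP kinase and calcium signals, and in B cells by the antigen receptor. Egr1 had the highest TLR level per kilobase of exonic length among these factors, at 70.2 CPM. Unscaled for length it had 231 and 399 CPM in the TLR libraries, against 65.2, 54.5 and 80.8 CPM in the CpG libraries and 56.5, 51.3 and 89.3 CPM in the naive libraries. It was present in every group, and TLR replicate 2 was 1.72 times replicate 1, the widest gap in that direction among the 74 genes. Egr2 had 51.2 and 58.1 CPM in TLR cells, 14.9, 17.7 and 19.6 CPM in CpG cells and 11.4, 14.3 and 11.6 CPM in naive cells. Its CpG libraries all lay above its naive libraries, with a CpG to naive ratio of 1.40. Maff, a small Maf protein without an activation domain of its own that pairs with other leucine zipper factors, had 9.74 and 10.7 CPM in the TLR libraries, 1.58, 2.97 and 2.52 CPM in the CpG libraries and 2.07, 1.49 and 2.09 CPM in the naive libraries, a ratio of 4.34. Also in this group were Nr1d1 (REV-ERB alpha, a repressor of the circadian clock), Id2 (which blocks the E proteins that B cell identity depends on), Zfp703 (a zinc finger co-repressor) and Gfi1 (a repressor in blood cell development). Their ratios were 4.88, 4.79, 3.90 and 3.27 in that order.

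The surface and membrane proteins numbered 11, with ratios from 3.03 to 29.8. Tnfrsf8 encodes CD30, a receptor of the TNF family that appears on activated lymphocytes. Its level was 32.6 and 24.03 CPM in TLR cells, against 0.0633, 1.06 and 1.59 CPM in CpG cells and 1.38, 0.847 and 0.626 CPM in naive cells, and CpG replicate 1 held a single count. Fzd9, a Frizzled receptor for Wnt ligands, had the lowest TLR mean of the 74 genes, with 6.67 and 6.28 CPM in the TLR libraries, 0.0633, 0.371 and 0.383 CPM in the CpG libraries and 0.159, 0.498 and 0.418 CPM in the naive libraries. The naive libraries, whose mean was the larger and gives the ratio of 18.1, held 3, 10 and 8 counts of it, and the CpG libraries together held 15. Cd63, a tetraspanin of late endosomes that reaches the surface on secretion, had 12.6 and 9.26 CPM in TLR cells, 0.886, 0.901 and 1.15 CPM in CpG cells and 0.957, 0.399 and 0.9395 CPM in naive cells. Each of these 3 genes stayed below 2 CPM in every CpG and naive library. Cadm4, a cell adhesion molecule, had 14.98 and 14.9 CPM in the TLR libraries, 1.52, 2.76 and 2.08 CPM in the CpG libraries and 1.86, 2.89 and 1.88 CPM in the naive libraries. Mpzl1, a membrane protein that binds the phosphatase SHP-2, had 36.8 and 40.04 CPM in TLR cells, 5.505, 6.73 and 7.29 CPM in CpG cells and 10.1, 4.58 and 1.93 CPM in naive cells, where the naive libraries were widely spread. Slc39a10, a zinc importer, Tmem41a, Hcn3 (a cation channel), Vat1 and Gypc (glycophorin C) were also in this group, with ratios from 3.03 to 4.04.

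**Figure D2:**
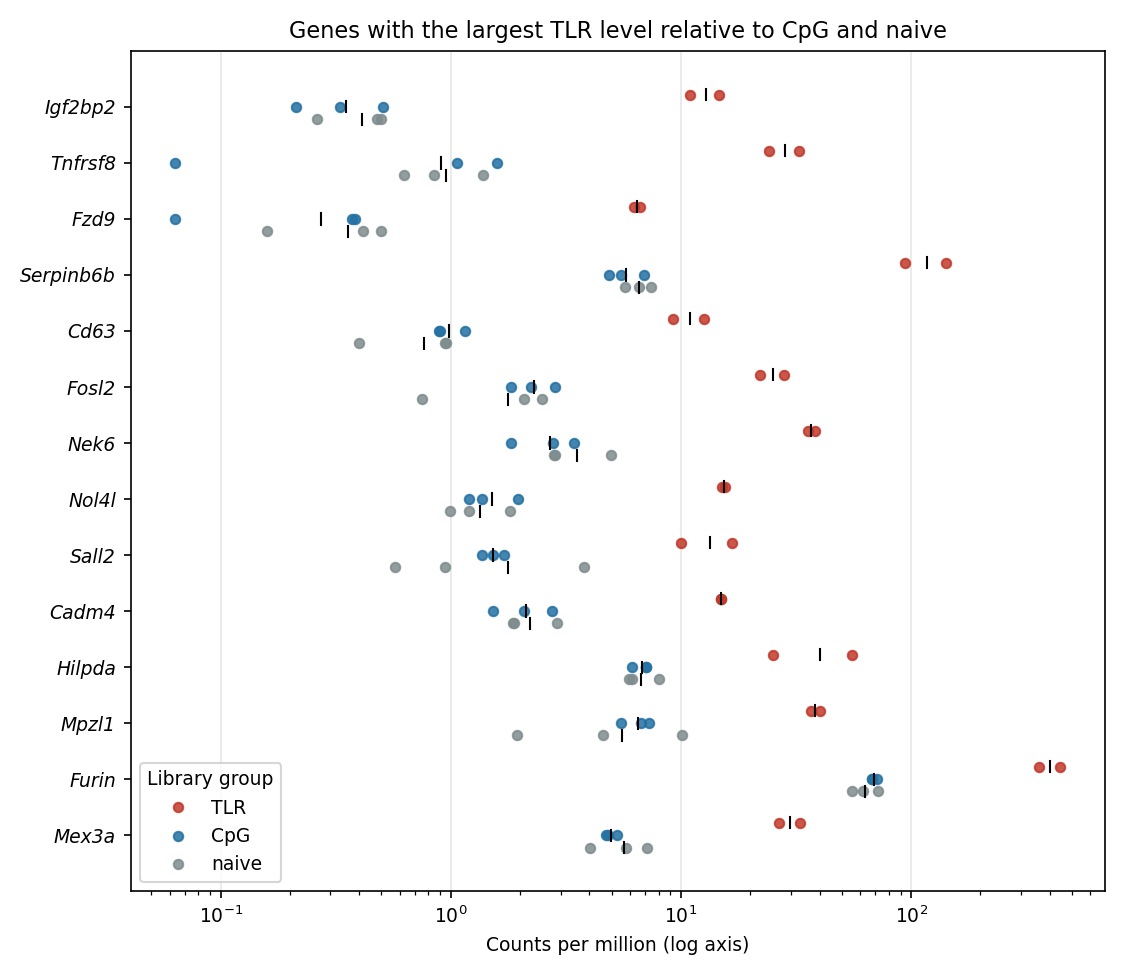
CPM (x axis, log scale) of 14 of the 15 genes with the largest ratio, 1 point per library, with TLR above CpG above naive within each gene and a black tick at each group's mean. In each gene both TLR points lie to the right of all others, and Furin lies furthest to the right, at 446 and 358 CPM in the TLR libraries.

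A protease and a protease inhibitor had ratios of 5.83 and 17.9. Furin is the proprotein convertase of the trans-Golgi network, which cuts precursors of growth factors, receptors and TGF-beta. It had 446 and 358 CPM in the TLR libraries, against 71.2, 67.3 and 67.9 CPM in the CpG libraries and 71.9, 55.2 and 61.8 CPM in the naive libraries, so the groups were far apart and the other 6 libraries close together. Serpinb6b, an intracellular serpin, had 141 and 94.1 CPM in TLR cells, 4.87, 5.51 and 6.902 CPM in CpG cells and 7.39, 5.73 and 6.58 CPM in naive cells. Both were lower in TLR replicate 2 than in replicate 1.

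Kinases, phosphatases and nuclear transport were represented by 5 genes, with ratios from 3.50 to 10.4. Nek6, a kinase of mitosis, had 38.2 and 35.5 CPM in the TLR libraries, 1.83, 3.44 and 2.79 CPM in the CpG libraries and 4.94, 2.84 and 2.82 CPM in the naive libraries. Dusp5 encodes a nuclear phosphatase that inactivates ERK, the MAP kinase that PMA activates through protein kinase C, and it is itself induced by ERK. Its level was 68.3 and 84.9 CPM in TLR cells, against 12.4, 9.01 and 20.3 CPM in CpG cells and 14.1, 14.6 and 20.98 CPM in naive cells. CpG replicate 3 and naive replicate 3 were the highest of their groups, and both TLR libraries were more than 3 times as high as either. Cdk14, Cinp and the importin gene Ipo4 had ratios of 4.16, 3.52 and 3.50.

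Genes of ribosome assembly and the nucleolus formed the largest group, with 16 genes, and the narrowest one, with ratios from 3.03 to 3.85 and a median of 3.30. Nolc1, a nucleolar phosphoprotein that chaperones small nucleolar particles, had 394 and 432 CPM in the TLR libraries, against 119, 155 and 134 CPM in the CpG libraries and 98.0, 132 and 114 CPM in the naive libraries. Ppan, a factor of the large ribosomal subunit, had 364 and 317 CPM in TLR cells, 129, 84.6 and 94.0 CPM in CpG cells and 76.7, 82.4 and 86.5 CPM in naive cells. Gnl3 (nucleostemin), a nucleolar GTPase, had 324 and 325 CPM in the TLR libraries, 97.7, 101 and 101 CPM in the CpG libraries and 77.5, 85.1 and 78.7 CPM in the naive libraries. In all of these the TLR libraries lay close together, and the CpG means were above the naive means. The other members were the ribosomal RNA processing factors Rrp12 and Rrp15, the assembly factors Grwd1, Mrto4, Nle1, Ebna1bp2 and Tma16, the nucleolar proteins Lyar, Ccdc86 and Gpatch4, Shq1 (which assembles box H/ACA particles), Cd3eap (a subunit of RNA polymerase I) and the ribosomal protein gene Rpl27. The CpG mean was above the naive mean in 14 of the 16, beside 52 of all 74 members, and the share over all genes was not counted.

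Translation, tRNA modification and mRNA binding were represented by 8 genes. Igf2bp2, which binds and stabilises mRNAs and is known from embryos and tumours, had the largest ratio of all at 31.0. It had 14.6 and 10.96 CPM in TLR cells, against 0.506, 0.212 and 0.329 CPM in CpG cells and 0.478, 0.498 and 0.261 CPM in naive cells, so it was nearly undetected without the final agents. Mex3a, another RNA-binding protein, had 26.6 and 32.9 CPM in the TLR libraries, 4.75, 5.299 and 4.82 CPM in the CpG libraries and 4.04, 5.78 and 7.099 CPM in the naive libraries. The remaining 6 had ratios from 3.37 to 4.08. Eif1ax, an initiation factor that helps the ribosome scan for the start codon, had 366 and 541 CPM in TLR cells, 102, 148 and 139 CPM in CpG cells and 80.6, 88.7 and 91.3 CPM in naive cells. Its CpG libraries all exceeded its naive libraries, and its CpG to naive ratio of 1.49 was just inside the limit. Eif4a1, the helicase that unwinds mRNA leaders, had 315 and 351 CPM in the TLR libraries, 109, 98.3 and 89.6 CPM in the CpG libraries and 82.6, 80.5 and 85.9 CPM in the naive libraries. Eif2b3 (a subunit of the factor that reloads eIF2 with GTP), Ifrd2 and the tRNA methyltransferases Mettl1 and Trmt61a completed the group.

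Mitochondrial proteins, nucleotides and folate accounted for 9 genes, with ratios from 3.00 to 4.40. Hspd1, the chaperonin that folds proteins in the mitochondrial matrix, had 379.6 and 570.1 CPM in the TLR libraries, against 94.2, 192 and 154 CPM in the CpG libraries and 71.3, 114 and 120.0 CPM in the naive libraries. TLR replicate 2 was 1.502 times replicate 1, and replicate 1 was also the lowest library of the CpG and of the naive group. Cad, the enzyme that starts pyrimidine synthesis, was even between TLR libraries, with 424 and 422 CPM in TLR cells, 124, 141 and 137 CPM in CpG cells and 108, 127 and 112 CPM in naive cells. Fpgs, which adds glutamates to folate and so retains it in the cell, had 90.3 and 87.2 CPM in the TLR libraries, 32.6, 24.4 and 28.6 CPM in the CpG libraries and 29.8, 30.05 and 28.8 CPM in the naive libraries. The others were Slc29a2 (a nucleoside transporter), Slc25a33 (a mitochondrial carrier of pyrimidine nucleotides), Top1mt (the mitochondrial topoisomerase), Chchd4 (which imports and oxidises proteins in the intermembrane space), Atad3a and Comtd1.

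Iron, redox and glucose metabolism had 4 genes. Fth1, the ferritin heavy chain that oxidises and stores iron, had the highest level of the 74, with 4966 and 3337 CPM in the TLR libraries, against 1230, 948 and 1050 CPM in the CpG libraries and 951, 857 and 919 CPM in the naive libraries. Per kilobase of exonic length its TLR level was 1197 CPM, against 180 CPM for Hspd1 and 104 CPM for Nolc1, the genes next in that order. Txnrd3, a thioredoxin reductase, had 31.2 and 42.05 CPM in TLR cells, 8.98, 16.3 and 11.1 CPM in CpG cells and 12.8, 11.6 and 11.1 CPM in naive cells. Gapdh, the glycolytic enzyme, had a ratio of 3.40 at low counts, and 25.1% of the 50-base windows of its transcripts also occur in transcripts of other genes.

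Hbb-bt, an adult beta globin gene, was singled out after its values were seen. It had 33.5 and 36.2 CPM in the TLR libraries, against 2.47, 11.7 and 7.18 CPM in the CpG libraries and 10.6, 1.74 and 3.13 CPM in the naive libraries. Its neighbour Hbb-bs had 0.513 and 0 CPM in the TLR libraries, 0.569, 0 and 0.0548 CPM in the CpG libraries and 32.6, 1.74 and 5.38 CPM in the naive libraries, and the alpha globin gene Hba-a1 had 0.05698 and 0 CPM in the TLR libraries, 0, 0 and 0.1096 CPM in the CpG libraries and 7.07, 0.399 and 0.835 CPM in the naive libraries. The 6 erythroid markers, which include Hbb-bs and Hba-a1, summed to 1.99 and 0.669 CPM in the TLR libraries, 0.657 to 1.90 CPM in the CpG libraries and 3.99 to 44.3 CPM in the naive libraries, so Hbb-bt stood apart from the other globin genes in the TLR libraries. Of its 50-base windows, 58.3% are shared with transcripts of other genes, and how reads were split between them was not tested.

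The 9 genes with other roles had ratios from 3.30 to 10.1. Nol4l had 15.6 and 15.1 CPM in TLR cells, 1.202, 1.96 and 1.37 CPM in CpG cells and 1.81, 0.997 and 1.20 CPM in naive cells. Hilpda, a lipid droplet protein that inhibits fat breakdown and is induced by hypoxia, had 55.2 and 25.2 CPM in the TLR libraries, 6.14, 7.05 and 7.07 CPM in the CpG libraries and 8.03, 6.13 and 5.95 CPM in the naive libraries. Its TLR libraries differed by more than those of any other member, although both lay above the 6 others. Ifit1 (an interferon-induced protein that binds foreign RNA), Smyd5 (a methyltransferase), Bsn (a scaffold of the synapse), Cenpv, Zbed5, Ube2cbp and Abtb2 had ratios from 3.30 to 4.93.

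**Figure D3:**
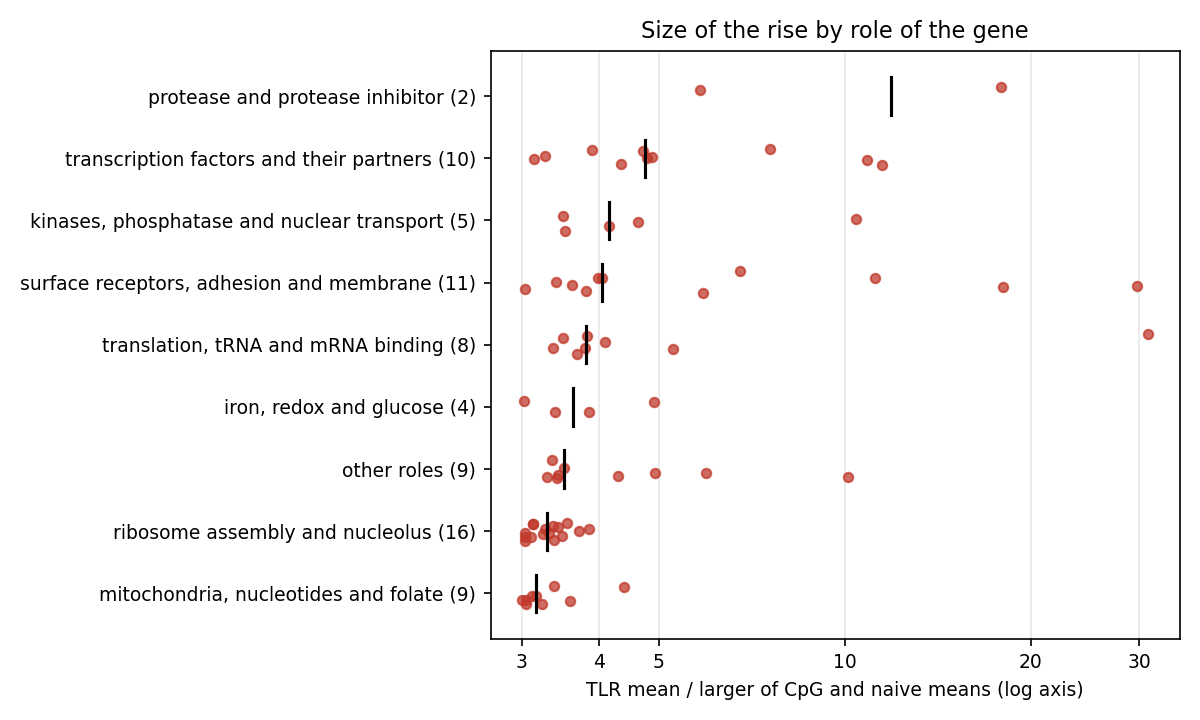
Ratio of the TLR mean to the larger of the CpG and naive means (x axis, log scale) for each of the 74 genes (red points), by role, with a black line at each role's median and the number of genes in brackets. The ribosome assembly genes form the narrowest band, from 3.03 to 3.85, while the transcription factors reach 11.5 and the surface proteins 29.8.

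The 3 genes just inside the 3-fold limit were Rpl27 at 3.03, Txnrd3 at 3.02 and Fpgs at 3.00. Rpl27 had 39.3 and 45.03 CPM in the TLR libraries, 18.7, 13.9 and 9.09 CPM in the CpG libraries and 12.2, 11.8 and 12.8 CPM in the naive libraries. Those just outside were Nsun2, a methyltransferase of RNA, and Cluh, which binds mRNAs of mitochondrial proteins, each at 2.99, and the E-box binding factor Tfap4 at 2.99. Nsun2 had 566 and 629 CPM in the TLR libraries, 174, 220.0 and 205 CPM in the CpG libraries and 154, 172 and 159 CPM in the naive libraries. Cluh had 324 and 362 CPM in the TLR libraries, 123, 107 and 114 CPM in the CpG libraries and 114, 118 and 104 CPM in the naive libraries, and Tfap4 had 53.8 and 37.6 CPM in the TLR libraries, 13.1, 12.7 and 20.1 CPM in the CpG libraries and 12.97, 14.8 and 12.4 CPM in the naive libraries. At the upper CpG to naive limit, Eif1ax at 1.49 and Chchd4 at 1.497 were inside, and Mmp10 at 1.51 and Pus7 at 1.52 outside. At the lower one, Fzd9 and Nek6 at 0.76 were inside, and Icos at 0.56 and Spry4 at 0.58 outside. The lowest TLR mean inside was 6.47 CPM (Fzd9), and the highest outside was 4.43 CPM (Wnk2). With no limit on the CpG to naive ratio, 211 of the 9274 genes (2.28%) were at least 3 times both other means with both TLR libraries above all others, and in 126 of them the CpG mean was more than 1.5 times the naive mean. Genes already higher after CpG and higher again at the end were therefore more numerous than the 74.

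The groups of ribosome assembly and of translation and tRNA were followed into gene families chosen by their name patterns after the members had been seen, so their counts are a description. Over 76 genes of 7 families (Rrp, Utp, Nop and Noc, RNA polymerase I, H/ACA and box C/D core proteins, Eif2b and Eif4, and tRNA methyltransferases), both TLR libraries lay above all others in 59 genes (77.6%), 8 of which are members and do so by rule. Among all 9274 genes the share was 31.6%. The median ratio of TLR mean to CpG mean was 2.59 for the Rrp genes, 2.55 for the H/ACA and box C/D core proteins, 2.49 for Nop and Noc, 1.97 for Utp, 1.74 for RNA polymerase I, 1.56 for Eif2b and Eif4 and 1.42 for the tRNA methyltransferases, against 1.06 over all genes. These medians include the members, whose ratio is at least 3 by rule. Members were 2 of the 8 Rrp genes and 1 of the 8 H/ACA and box C/D genes. The Utp, Nop and Noc genes held no member. Of the genes that are not members, 42 had both a near-equal CpG to naive ratio and TLR libraries above all others, and so missed only the 3-fold limit. Nop56 and Fbl, core proteins of box C/D particles, reached 2.98 and 2.97 times their CpG means. Nop56 is counted under Nop and Noc, while the set of H/ACA and box C/D core proteins also holds the assembly factors Shq1 and Naf1. The TLR mean was above both other means in 68 of the 76 genes (in the 8 members by rule), against 4299 of all 9274 genes. Among the 76, the TLR mean was below the CpG mean in 7, which were Eif4e3 at 0.474 times its CpG mean, Trmt2b at 0.617, Trmt12 at 0.733, Nop53 at 0.748, Trmt1l at 0.790, Trmt10b at 0.947 and Utp14b at 0.998. Mettl1 methylates guanosine in tRNA together with Wdr4, and their TLR means were 3.82 and 2.40 times their CpG means. Trmt61a methylates adenosine in tRNA together with Trmt6, and theirs were 4.30 and 1.98 times.

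**Figure D4:**
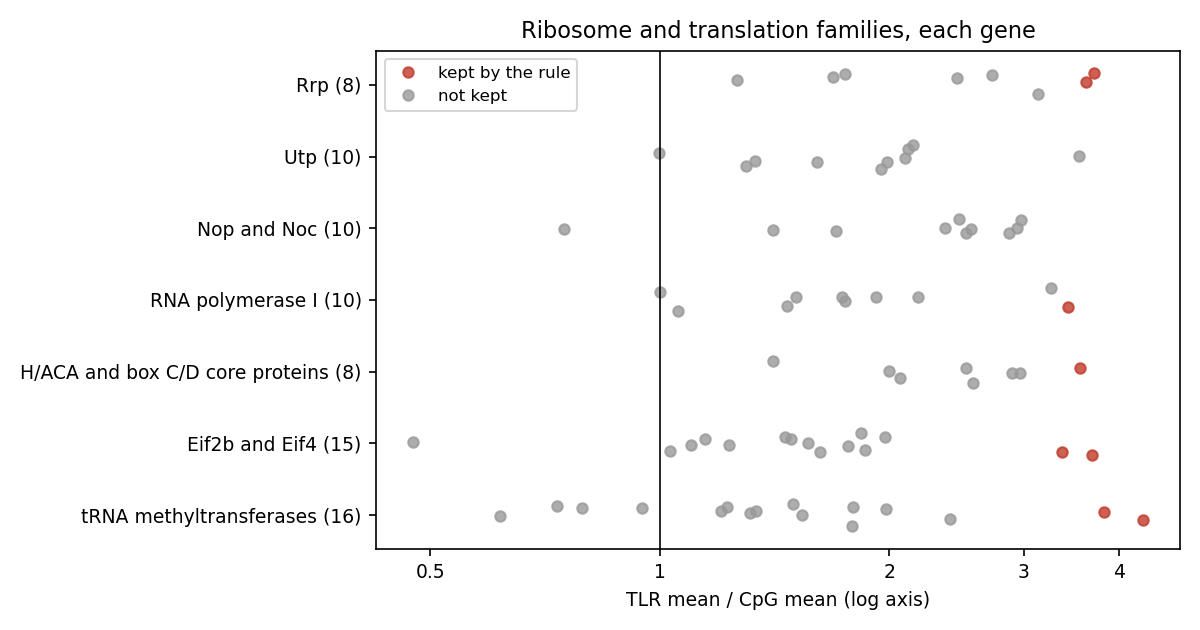
Ratio of TLR mean to CpG mean (x axis, log scale) for each gene of 7 name-pattern families, with genes kept by the rule in red and others in grey, and the number of genes in brackets. Most points lie to the right of 1, and the Rrp, H/ACA and Nop families have medians of 2.59, 2.55 and 2.49. The medians include the red genes, which lie at 3 or above by rule.

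Genes of the pathways that LPS, PMA and ionomycin act on were taken from 12 lists, and those that are not among the 74 were tested in TLR cells against CpG cells. Over all 13964 genes tested with edgeR's quasi-likelihood test, 2647 were higher in TLR cells (19.0%) and 2770 lower (19.8%) at an adjusted p below 0.05, with a median log2 fold change of -0.02. The same fit gave 4409 genes higher (31.6%) and 4142 lower (29.7%) in TLR than in naive cells, and 3286 higher (23.5%) and 3061 lower (21.9%) in CpG than in naive cells, and the 3 comparisons share libraries. Without TLR replicate 1, the counts of TLR against CpG were 1683 and 1833. Changes below are log2 fold changes of TLR over CpG cells with their SE. Of the immediate early transcription factors, 9 of 26 rose and 3 fell, with a median of 0.74. Egr1, Egr2, Fosl2 and Maff are members and stand outside that count. Nr4a1, a nuclear receptor induced by antigen receptor signals, rose by 1.87 ± 0.18 (SE, adjusted p = 5.12e-05). Btg2, an antiproliferative gene, and Csrnp1 fell, with log2 fold changes of -2.35 ± 0.15 (SE, adjusted p = 7.21e-06) and -1.60 ± 0.16 (SE, adjusted p = 6.24e-05). The list thus held calls in both directions, more of them higher than lower. Of the MAP kinase phosphatases and Sprouty genes, 5 of 14 rose and none of them fell, with a median of 0.61, beside the member Dusp5. Dusp4 and Dusp2, which are nuclear phosphatases like Dusp5, rose by 2.56 ± 0.24 (SE, adjusted p = 4.75e-05) and 1.74 ± 0.22 (SE, adjusted p = 2.32e-04), and Spry4, an inhibitor of the pathway to ERK, by 4.498 ± 0.44 (SE, adjusted p = 5.12e-05).

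The calcineurin and NFAT list had 3 genes of 19 higher and 5 lower, with a median of -0.15. Over all tested genes, 19.0% were higher and 19.8% lower. The 3 called genes of the list with the smallest p-values all fell. They were Nfatc1, with a log2 fold change of -1.82 ± 0.16 (SE, adjusted p = 3.29e-05), the calcium channel gene Orai2, with -2.03 ± 0.19 (SE, adjusted p = 4.42e-05), and the calcineurin subunit Ppp3ca, with -0.96 ± 0.12 (SE, adjusted p = 1.96e-04). Of the NF-kB subunits and feedback genes, 10 of 19 rose and 2 fell, with a median of 0.50. They included the subunit Rel, at 0.90 ± 0.16 (SE, adjusted p = 0.00164), and the feedback genes Tnip1, at 0.75 ± 0.12 (SE, adjusted p = 0.00112), and Nfkbib, at 0.72 ± 0.13 (SE, adjusted p = 0.00168). No member of the 74 belongs to either list. These counts depend on single libraries. Without TLR replicate 1 the 3 calcineurin and NFAT genes were no longer called higher (1 gene was called without TLR replicate 2, and 1 without CpG replicate 3) and 4 NF-kB genes were higher. Without TLR replicate 2, 3 calcineurin and NFAT genes were lower and the 2 NF-kB genes no longer were, while 4 NF-kB genes were lower without CpG replicate 1. Of 14 BCL2 family genes, 1 rose and 2 fell, with a median of 0.16. The survival gene Bcl2l1 rose by 1.87 ± 0.11 (SE, adjusted p = 5.84e-06), while the death-promoting Bmf and the survival gene Mcl1 had log2 fold changes of -2.69 ± 0.21 (SE, adjusted p = 1.55e-05) and -1.27 ± 0.16 (SE, adjusted p = 1.98e-04). Without any 1 of the CpG libraries, 2 genes of this family were higher.

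Secreted factors were tested in the same way. Of 20 interleukins, colony-stimulating and growth factors tested, 10 rose and 2 fell, with a median of 1.60. Il10, the cytokine that regulatory B cells are known for, rose by 3.67 ± 0.25 (SE, adjusted p = 9.39e-06). Spp1 (osteopontin) rose by 4.65 ± 0.41 (SE, adjusted p = 3.05e-05), and Il33 by 3.11 ± 0.33 (SE, adjusted p = 8.42e-05). Of 12 chemokines, 4 rose and 1 fell, with a median of 0.47. Ccl5 rose by 4.03 ± 0.67 (SE, adjusted p = 0.00116). Cxcl10 had 188 counts in the TLR libraries and 1 in the CpG libraries, a ratio of 269 in CPM with an exact 95% counting interval of 47.7 to 10684. Ccl4 rose by 1.71 ± 0.39 (SE, adjusted p = 0.00688), but without TLR replicate 1 its log2 fold change was 1.00 with an adjusted p of 0.117. Of 27 TNF superfamily genes other than Tnfrsf8, 9 rose and 4 fell, with a median of 0.38. Tnf rose by 2.80 ± 0.17 (SE, adjusted p = 6.02e-06), and Tnfrsf9, which like Tnfrsf8 encodes a receptor of activated lymphocytes, by 5.23 ± 0.74 (SE, adjusted p = 4.76e-04). Ltb, which is needed for the structure of lymphoid tissue, had a log2 fold change of -4.08 ± 0.29 (SE, adjusted p = 1.18e-05). The 1 chemokine called lower was not called without TLR replicate 1, TLR replicate 2 or CpG replicate 3, and 2 TNF superfamily genes were lower without TLR replicate 2.

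The remaining lists hold heat shock, SOCS family, RGS family and mRNA decay genes. Of 10 heat shock genes other than Hspd1, 4 rose and none of them fell, with a median of 0.90. Hspe1, the co-chaperonin of Hspd1, rose by 0.82 ± 0.17 (SE, adjusted p = 0.00417), Bag3 by 1.83 ± 0.39 (SE, adjusted p = 0.00453) and Hsp90ab1 by 0.91 ± 0.24 (SE, adjusted p = 0.0143), the last with a log2 fold change of 0.66 and an adjusted p of 0.131 without TLR replicate 2. Of 8 SOCS family genes, 1 rose and 1 fell, with a median of 0.08. Socs5 had a log2 fold change of -1.43 ± 0.15 (SE, adjusted p = 8.18e-05), and Cish rose by 2.59 ± 0.59 (SE, adjusted p = 0.00635), but its adjusted p was 0.118 without TLR replicate 1 and 0.128 in the 5 RCa18 libraries alone. Of 11 RGS family genes, 1 rose and 2 fell, with a median of -0.37. Rgs1 rose by 2.78 ± 0.59 (SE, adjusted p = 0.00466) and Rgs14 had a log2 fold change of -1.22 ± 0.22 (SE, adjusted p = 0.0017), while Rgs18 had no count in the TLR libraries and 58 in the CpG libraries, at least 13.5-fold lower against a floor of 3 counts over the group. Of 12 mRNA decay factors, 1 rose and 3 fell, with a median of -0.24. Zc3h12d, Zc3h12c and Tob2 had log2 fold changes of -1.49 ± 0.14 (SE, adjusted p = 5.14e-05), -1.67 ± 0.30 (SE, adjusted p = 0.00179) and -0.67 ± 0.17 (SE, adjusted p = 0.0102). The last missed the threshold without TLR replicate 1 or without TLR replicate 2, with adjusted p-values of 0.0615 and 0.0648. Counts of 1 in these lists moved with single libraries. The decay factor called higher was not called without TLR replicate 1, CpG replicate 1, CpG replicate 3 or naive replicate 1, and 2 RGS genes were higher without TLR replicate 1. Among SOCS genes, 2 were higher without naive replicate 1 and 2 lower without CpG replicate 1. Fewer heat shock genes were called higher without TLR replicate 2 than in all libraries. That count includes Hspd1, a member chosen by these same values.

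The labelled cell type was checked in its markers. The 8 B cell markers were detected in every library, and all of them were lower in TLR than in CpG cells at an adjusted p below 0.05 in edgeR. Their summed level was 2971 and 3139 CPM in the TLR libraries, 9241 to 13450 CPM in the CpG libraries and 11100 to 11470 CPM in the naive libraries. In bulk samples, fewer cells of a type and less RNA per cell cannot be told apart. Other cell types were read from summed markers. T cell markers summed to 26.4 and 32.4 CPM in the TLR libraries, 46.3 to 73.6 CPM in the CpG libraries and 73.6 to 117 CPM in the naive libraries. Macrophage and monocyte markers summed to 25.1 and 25.3 CPM in TLR, 59.4 to 88.1 CPM in CpG and 133 to 1002 CPM in naive cells, and dendritic cell markers to 84.4 and 107 CPM, 92.5 to 117 CPM and 61.8 to 121 CPM in the same order. None of these 3 sums was above its CpG range in a TLR library. Natural killer cell markers summed to 1.37 and 1.80 CPM in TLR, 1.71 to 2.97 CPM in CpG and 19.2 to 95.4 CPM in naive cells, and platelet markers to 2.05 and 3.24 CPM, 2.44 to 3.29 CPM and 2.54 to 14.0 CPM. Stromal and endothelial markers summed to 233 and 171 CPM in TLR, 220.2 to 308 CPM in CpG and 294 to 344 CPM in naive cells. Basophil and mast cell markers reached at most 0.114 CPM in TLR, 0.316 CPM in CpG and 9.55 CPM in naive cells, and neutrophil markers had no count in the TLR libraries and reached 0.424 CPM in CpG and 7.31 CPM in naive cells. Of all these markers, Zbtb46 (dendritic cells) and Epor (erythroid cells) were higher in TLR than in CpG cells at an adjusted p below 0.05 in edgeR, with log2 fold changes of 1.59 and 2.36. Their part in the levels of the 74 genes was not tested.

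The file names carry a library prefix, RCa1 for replicate 1 of each group and RCa18 for the other 5 libraries, and the share of reads with more than 1 alignment was 37.5% to 50.2% in the RCa1 libraries and 14.7% to 21.5% in the RCa18 libraries. Within each prefix this share was highest in the TLR library, at 50.2% and 21.5%. It was lowest in the naive libraries, at 37.5% in RCa1 and 14.7% and 15.1% in RCa18. The prefix allowed the rule to be applied in one set of libraries and read in the other. Chosen in the 5 RCa18 libraries alone, the rule kept 68 genes, of which 65 had a TLR level above both others in the 3 RCa1 libraries and 45 (66.2%) were at least 3 times both. Of all 9277 genes above the minimum, 48.3% were higher than both and 3.45% at least 3 times both. Chosen in the RCa1 libraries alone, with 1 library a group, it kept 142 genes, of which 138 were higher and 58 (40.8%) at least 3 times both others in the RCa18 libraries, against 44.5% and 1.90% of 9262 genes. The choices shared 36 genes, 52.9% of the RCa18 choice and 25.4% of the RCa1 choice, and each shared 51 genes with the 74. Most genes chosen in one set were thus higher in the other, while which genes passed the 3-fold limit varied. Of the 74, 62 reached 3-fold within RCa1, 62 within RCa18 and 52 within both, and the lowest ratio within a prefix was 2.10. The 74 were chosen in these same libraries, so TLR lies above both others within each prefix by rule. These within-prefix values of the 74 are therefore a description and no replication. The ratios lay furthest apart, as the larger over the smaller, in Sall2 (2.64 in RCa1 and 10.9 in RCa18), Fzd9 (41.8 and 13.7), Gypc (4.29 and 2.12) and Hilpda (6.88 and 3.57).

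**Figure D5:**
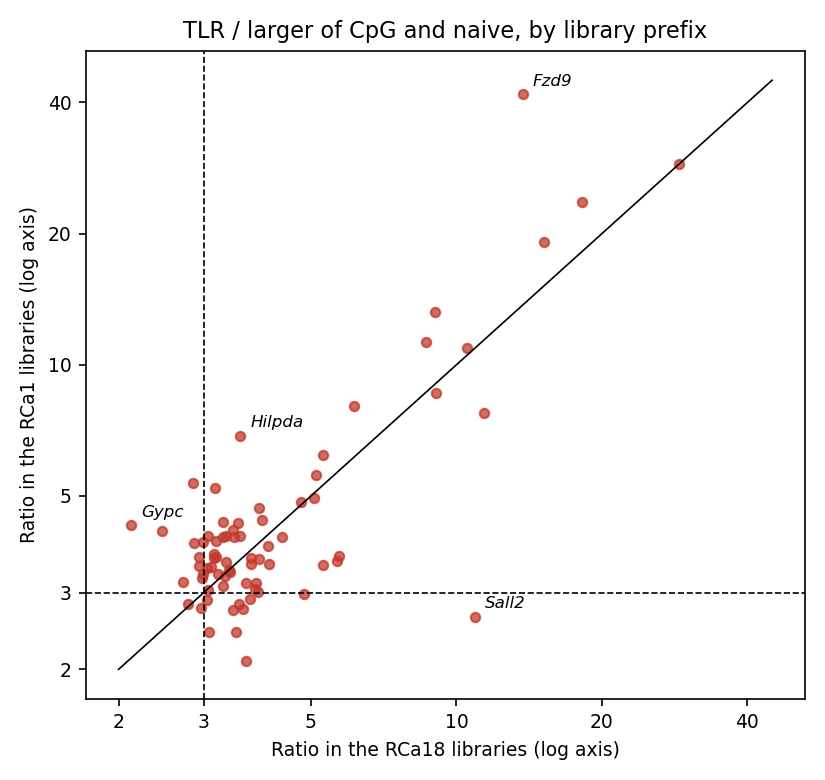
Ratio of TLR to the larger of CpG and naive for each of the 74 genes in the RCa18 libraries (x axis, log scale) and in the RCa1 libraries (y axis, log scale), with the diagonal as a solid line and 3-fold as dashed lines. All points lie above 2 on both axes, 52 are above 3 on both, and the 4 genes whose ratios lay furthest apart, Sall2, Fzd9, Gypc and Hilpda, are named. The 74 were chosen in these same libraries, so TLR lies above both others in each prefix by rule.

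Properties that the rule did not use were also read. The 74 genes lie on 19 chromosomes. Their median exonic length was 3464 bases, against 4711 bases for the 6188 genes with a TLR mean of at least 5 CPM and a near-equal CpG to naive ratio, and 4919 bases for the 124 genes chosen by the mirrored rule for low TLR levels. Their median genomic span was 13060 bases, against 23580 and 27640 bases, and they had a median of 7 exons after merging transcripts, against 10 in both other sets. The genes raised at the end were thus shorter and had fewer exons than both sets, as medians without a test.

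Promoters were searched over the 250 bases before each start, on both strands, in RefSeq windows that matched 62 of the 74 genes (77 windows, since some genes have several starts). The share with a motif is given beside that over 19148 windows of 15572 protein-coding genes, whatever their level in these cells. The E-box was in 10.4% of the members' windows and 7.00% of all, the EGR motif in 13.0% and 6.89%, the CRE in 5.19% and 2.05%, and the CArG box in 6.49% and 1.34%. The CArG windows belong to only Egr2, which has several starts, and Dusp5, so by genes the shares were 3.23% and 1.55%. The AP-1 motif was in 3.90% and 5.97%, the NF-kB motif in 1.30% and 1.38%, CCAAT in 22.1% and 34.9%, the NRF1 motif in 5.19% and 5.58%, and the composite of NFAT and AP-1 sites in no member window and 0.0209% of all. No motif was therefore found in most of the members. All 4 CRE matches (Maff, Ppan, Trmt61a and Ccdc86, printed above) lay within 50 bases of the start, a position seen only after the search, where 0.877% of all windows hold one. Matches are a description of sequence, and binding was not measured.

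Because the names of the files say that counting ignored strand, and reads with several alignments were set aside, some members are less certain. Exons of 27 of the 74 overlap another gene, on the opposite strand in 23 (Dusp5, Furin, Nek6, Hspd1, Gnl3, Mex3a, Fpgs and Gapdh among them). The share over all genes was not counted. Reads assigned to several genes were also set aside, so these members may be counted in part. The annotation used in counting is not named, so whether reads from the partners were included cannot be told. In 15 genes more than 10% of the 50-base windows of their transcripts also occur in transcripts of other genes, with the highest shares in Hbb-bt (58.3%), Ipo4 (51.6%), Hspd1 (42.1%), Eif4a1 (28.4%), Comtd1 (26.8%), Gapdh (25.1%), Rpl27 (23.5%) and Dusp5 (20.5%). Shared windows were not counted for genes outside the 74. Every member had at least 117 counts in each TLR library, and the fewest counts of a member over the CpG or the naive group were 15.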

How the data were processed

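The data are RNA sequencing counts of 8 mouse splenic B cell libraries (2 TLR, 3 CpG and 3 naive), grouped by their titles. Per the labels' protocols, libraries were made from total RNA after polyA selection, with a kit that keeps strand. STAR, HTSeq, edgeR and build mm9 are named in the submitters' processing notes, without versions, and no annotation release is named. Each deposited file holds raw counts, 1 value per gene identifier, and its name says that strand was ignored in counting. The 5 summary lines of each file stayed out of library sizes and tests. Of all reads counted in a file, those with more than 1 alignment were 14.7% to 50.2%, those outside genes 7.84% to 15.0% and those in several genes 1.29% to 2.15%, so genes with close copies may be counted in part.

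Symbols, biotypes and exons were taken from GENCODE M21 by identifier, for names and lengths only. It matched 32860 identifiers, and the 4723 others held at most 1.02% of a library's counts. The rule was applied to CPM in Python 3.11.15 with pandas 2.3.3 and numpy 2.4.6. Tests were made in R 4.3.3 with edgeR 4.0.16, by filterByExpr (13964 genes), TMM scaling and the quasi-likelihood test in a model of all 8 libraries with 3 group means (common dispersion 0.0421), and p-values were adjusted by Benjamini-Hochberg over all tested genes. An SE was obtained from the log2 fold change and its F statistic. In simulated data for TLR against CpG, with 13964 genes, 98 of 100 genes changed by a log2 of 2 and 42 of 100 changed by a log2 of 1 were recovered, with 12 false calls.

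The members and lists were chosen with earlier results of these data known, and roles and name-pattern families were assigned after the members were seen. Since the rule used all 3 comparisons, no test of a single member is reported, though members were among the genes fitted. Values in every library are given for the 15 members with the largest ratio, the 10 with the highest TLR mean, members of the 12 lists, and the 3 genes on each side of the 3-fold limit. A few genes to which this applies are not reported here. Of the other list genes, up to 3 called genes per list are named by smallest p. Alternatives were TMM and RLE scaling, other limits, each prefix alone, each library left out, DESeq2 1.42.0, no filter or a mean of 1 CPM, a fit of 2 groups, the replicate number as a block, and the prefix as a term. Intervals and floors (3 counts) cover counting error only.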

Additional observations from a re-analysis of the deposited data

How the results depend on the processing

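The number of genes that the rule keeps depends on its limits: it was 370 at a 2-fold limit and 27 at a 4-fold limit, and 142 in the RCa1 libraries alone, where each group has 1 library. It was 69 with TMM scaling, all of them among the 74, 67 with RLE scaling (66 shared), 68 in the RCa18 libraries alone (51 shared), and 71 to 92 when each library was left out in turn, with 63 to 71 shared. Of the tested counts, those of TLR against CpG moved most: leaving out each library in turn gave 1683 to 2756 genes higher and 1833 to 2869 lower, and the lowest of both came without TLR replicate 1, which leaves 1 TLR library assumed to vary like the other groups. DESeq2 gave 2671 higher and 3027 lower. The labels do not pair the libraries, and same-numbered libraries correlated at 0.00359 to 0.326 in their deviations from the group means, and not every library correlated best with its own number. With the replicate number as a block, 2719 genes were higher and 2822 lower in TLR than in CpG cells, 4415 and 4187 in TLR than in naive cells, and 3428 and 3237 in CpG than in naive cells. Of 408 counts for single lists under alternatives, 34 moved by more than 1.5 times. These counts include the members that the lists hold. Named list genes kept their direction under every alternative run, and Ccl4, Cish, Tob2 and Hsp90ab1 lost their calls as given above. Outliers cannot be told in groups of 2 or 3 libraries.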
